A study of Mus musculus with 2 samples.

Results

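The ribosomal protein pseudogenes described here are the genes whose symbol is that of a ribosomal protein gene followed by -ps and, in most cases, a number. Of 43346 Ensembl genes in the deposited gene tables, 257 carry such a symbol, and each was set beside the gene it is named after, called its parent below. The 257 pseudogenes are named after 58 parents. Of these parents, 57 are in the tables, and Rpl48-ps1 has no gene called Rpl48 beside it.

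Ribosomal proteins build the large (Rpl genes) and small (Rps genes) subunits of the ribosome, and their mRNAs are short and abundant in nearly every cell. Such mRNAs were copied back into the genome many times by the reverse transcriptase of mobile elements, which left intronless copies called processed pseudogenes. Most copies carry no promoter of their own and decay by mutation, and a read from a young copy can match the parent mRNA base for base. A quantifier then has to divide that read between the loci, which is why the counts below are estimates.

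Spleen tissue of a single adult male mouse of strain C57BL/6J, 10 weeks old, gave the polyadenylated RNA, with no treatment or engineered allele in the labels. It was sequenced as technical replicate 2, which per the labels was made later and was no part of the original publication, and as technical replicate 1, both from biological replicate 1. Technical replicate 2 held 3806381 expected counts on genes and technical replicate 1 held 27528824, a depth ratio of 7.23. All 25 spleen cell markers examined reached 1 TPM (transcript abundance scaled for length and depth) in technical replicate 2, and 24 of 25 did in technical replicate 1, with Nkx2-5, a transcription factor of spleen development, below. The tables' effective lengths fell short of the lengths by a median of 135 bases in technical replicate 2 and 191 bases in technical replicate 1. Depth, library date and this difference move together between the libraries, so their parts in the results below cannot be told apart. Each side has 1 library, so no difference has a replicate check, and every one compares these libraries of 1 animal.

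The sequences show how little separates many copies from their parents. All 257 pseudogenes have a transcript in GENCODE release M21 on GRCm38, and 253 aligned to a coding transcript of the parent. Identity over the alignment had a median of 95.6% and ran from 70.9% to 100%, and 51 pseudogenes were over 99% identical. The alignment covered 41.2% to 100% of a pseudogene's transcript, and bases outside it were not compared. Of the 257, 12 had no mismatch and no gap within the alignment. One of these is Rps6-ps4, the copy with the most counts in technical replicate 1, whose first 90 coding bases (chr2:75191733-75191822, minus strand, GRCm38) are also those of Rps6, on chromosome 4. Rps6 encodes the small subunit protein that S6 kinases phosphorylate.
Rps6-ps4: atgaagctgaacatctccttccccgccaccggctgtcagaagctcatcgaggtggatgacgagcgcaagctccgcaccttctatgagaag

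Rpl19-ps11, the copy with the most counts in technical replicate 2, differs from the coding sequence of Rpl19 at 1 base, G191A, counted from the A of the start codon with the parent's base first. The stretch shown is chr8:19493071-19493180 on the plus strand of GRCm38, beside coding bases 136 to 245 of Rpl19 on chromosome 11, with the differing base in capitals. The transcript quantified by the authors is longer, at 718 bases against 591 in release M21, and the extra bases were not used here.
Rpl19-ps11: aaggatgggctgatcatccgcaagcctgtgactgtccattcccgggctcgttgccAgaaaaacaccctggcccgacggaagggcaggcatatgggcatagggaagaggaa
Rpl19: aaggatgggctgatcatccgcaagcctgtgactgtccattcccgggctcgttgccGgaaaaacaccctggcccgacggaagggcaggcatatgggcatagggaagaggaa

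Rps25-ps1 differs from Rps25, a small subunit gene on chromosome 9, at 4 coding bases: T6G, G55A, G159A and C188T. It is shown over chr6:145266400-145266639 on the plus strand, which spans coding bases 1 to 240 and holds all 4 differences. Reads that cover none of the capitals match both loci.
Rps25-ps1: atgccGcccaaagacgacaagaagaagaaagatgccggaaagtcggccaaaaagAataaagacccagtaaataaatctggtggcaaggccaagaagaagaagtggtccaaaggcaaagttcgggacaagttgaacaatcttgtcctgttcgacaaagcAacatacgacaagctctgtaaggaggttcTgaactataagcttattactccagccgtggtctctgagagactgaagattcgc
Rps25: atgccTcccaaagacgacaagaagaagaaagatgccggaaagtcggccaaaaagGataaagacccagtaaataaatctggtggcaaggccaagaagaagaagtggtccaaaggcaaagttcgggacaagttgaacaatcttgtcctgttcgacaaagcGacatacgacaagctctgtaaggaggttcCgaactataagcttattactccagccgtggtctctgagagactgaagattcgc

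Rpl35a-ps2, -ps3, -ps4 and -ps6 each differ from Rpl35a, a large subunit gene on chromosome 16, at the single base G156A. They lie on chromosomes 1, 17, 2 and 5 and share every window of 50 bases with each other and with Gm10243, a processed pseudogene outside the naming rule. Rpl35a-ps2 is shown over chr1:181242111-181242220 on the minus strand, beside coding bases 101 to 210 of Rpl35a.
Rpl35a-ps2: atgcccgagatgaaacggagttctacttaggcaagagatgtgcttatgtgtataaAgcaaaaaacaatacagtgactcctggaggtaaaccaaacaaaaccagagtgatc
Rpl35a: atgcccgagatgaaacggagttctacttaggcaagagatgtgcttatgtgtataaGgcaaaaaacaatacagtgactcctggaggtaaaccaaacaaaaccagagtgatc

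Rps10-ps2 carries 5 differences from Rps10, a small subunit gene on chromosome 17, and they lie in its last part: T393C, T408C, C437G, A438G and G473A. It is shown over chr16:20822146-20822385 on the minus strand, which spans coding bases 256 to 495. Upstream of the first of them its coding bases are those of Rps10.
Rps10-ps2: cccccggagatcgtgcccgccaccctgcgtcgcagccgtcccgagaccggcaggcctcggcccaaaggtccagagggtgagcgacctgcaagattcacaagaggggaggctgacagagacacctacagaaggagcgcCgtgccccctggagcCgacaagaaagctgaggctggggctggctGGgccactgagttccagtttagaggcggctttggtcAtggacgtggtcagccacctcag
Rps10: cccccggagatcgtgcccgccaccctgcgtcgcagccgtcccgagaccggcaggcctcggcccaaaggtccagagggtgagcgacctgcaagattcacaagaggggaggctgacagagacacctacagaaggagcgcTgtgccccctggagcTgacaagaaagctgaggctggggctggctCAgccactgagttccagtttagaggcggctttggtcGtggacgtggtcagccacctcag

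Most members have the build of processed pseudogenes. The annotation classes 245 as processed pseudogenes, 6 as transcribed processed pseudogenes and 6 as protein-coding, and 251 have a single exon. The 6 protein-coding ones are Rpl10-ps3, Rpl36a-ps1, Rpl9-ps6, Rps12-ps3, Rpl9-ps1 and Rpl36-ps4. Transcript length had a median of 449 bases (151 to 1214) and GC content a median of 49.7% (40.9% to 61.6%). An open reading frame of the parent's length, closed by a stop codon, was found in 79 pseudogenes, and in 95 the longest such frame was under 50% of it. Frames with no stop codon inside the annotated transcript were not counted, so the 95 are not all broken frames. Rps13-ps2 matches Rps13 over 453 coding bases but was scored at 8 codons. The members lie on 20 chromosomes, with 35 (13.6%) on chromosome X. On the same strand, 22 lie in an intron of another gene, among them Rpl17-ps8 in Heph, Rps19-ps6 in Tecpr2 and Rps13-ps4 in Taf1c, and 4 overlap an exon of another gene. The largest families are those of Rps12 with 22 copies, Rpl31 with 21, and Rpl23a and Rps19 with 14 each, while 17 parents have 1 copy.

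A minority of the pseudogenes held reads. An expected count of at least 1 was found for 66 of 257 (25.7%) in technical replicate 2 and for 87 (33.9%) in technical replicate 1. Both libraries counted 53 of them, 13 had a count in technical replicate 2 alone, 34 in technical replicate 1 alone, and 157 (61.1%) in neither. Of all 43346 genes, 13734 had a count in both, 419 in technical replicate 2 alone, 6295 in technical replicate 1 alone, and 22898 (52.8%) in neither. All 57 parents held reads in both libraries. Among 5281 other processed pseudogenes, 161 (3.05%) held a count in technical replicate 2 and 913 (17.3%) in technical replicate 1, and among all genes 32.7% and 46.2% did. The order of the libraries turned with the measure: at 1 CPM (a count scaled to library depth), 46 ribosomal protein pseudogenes passed in technical replicate 2 and 33 in technical replicate 1. At 1 TPM the numbers were 55 and 48. A count of 0 allows up to 3 counts in that library, and these floors and the intervals below cover counting error only.

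Pseudogenes more like their parent held reads more often, in bands set after the values were seen. Of the 51 over 99% identical, 36 held at least 1 count in technical replicate 2 and 41 in technical replicate 1. Of the 84 between 95% and 99%, 26 and 34 did, and of the 72 between 90% and 95%, 3 and 9. Of the 46 at 90% or under, none held a count in technical replicate 2 and 3 did in technical replicate 1. The pseudogenes over 99% identical held 90.2% of all pseudogene counts in technical replicate 2 and 96.6% in technical replicate 1.

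**Figure D1:**
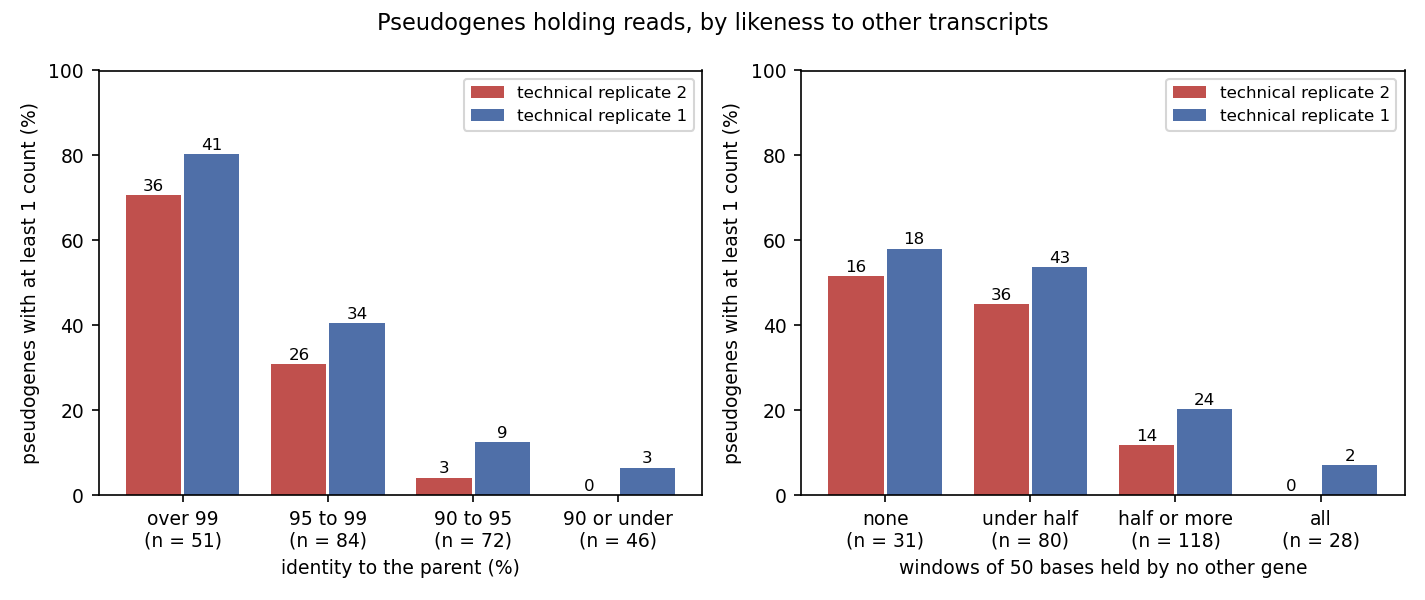
Percent of pseudogenes with an expected count of at least 1 (y axis) by identity to the parent (left) and by the share of their windows of 50 bases that no other gene's transcript holds (right), for technical replicate 2 (red) and technical replicate 1 (blue); the number over each bar counts the pseudogenes holding reads and n is the size of the band. The share holding reads is highest in the band over 99% identical, with 36 of 51 in technical replicate 2 and 41 in technical replicate 1, and lowest in the band at 90% or under, with 0 and 3 of 46.

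The same picture came from asking which stretches belong to a pseudogene alone. Each transcript was cut into all windows of 50 bases, and a window was unique if no transcript of another gene in the tables held it on the same strand. In 31 pseudogenes no window was unique, and 16 of these held reads in technical replicate 2 and 18 in technical replicate 1. In 28 pseudogenes every window was unique, and none held a count of at least 1 in technical replicate 2 while 2 did in technical replicate 1, with 2 counts between them. Pseudogenes with no unique window took 27.5% of all pseudogene counts in technical replicate 2 and 80.3% in technical replicate 1. For 34 pseudogenes, Rpl19-ps11 among them, the sequence used here differs in length from the one quantified. Without these the shares were 65.3% in technical replicate 2 and 88.3% in technical replicate 1.

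Summed over all 257, the pseudogenes held 10240 counts in technical replicate 2 and 24601 in technical replicate 1. That was 0.269% of all gene counts in technical replicate 2 and 0.0894% in technical replicate 1. Of the counts on pseudogenes and parents together, the pseudogenes took 2.28% (exact 95% interval 2.23 to 2.32) in technical replicate 2 and 2.94% (2.90 to 2.97) in technical replicate 1. One locus moved this share: without Rpl19-ps11 it was 1.16% in technical replicate 2 and 2.88% in technical replicate 1. In TPM, which allows for length, the pseudogenes summed to 3935 in technical replicate 2 and 3921 in technical replicate 1, close totals that were made up of different loci.

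The counts were concentrated on few loci, and these differed between the libraries. The first 10 pseudogenes held 92.0% of the pseudogene counts in technical replicate 2 and the first 10 held 83.8% in technical replicate 1. Rpl19-ps11 alone held 49.5% in technical replicate 2, followed by Rpl17-ps5 and Rps23-ps1. In technical replicate 1 Rps6-ps4 led with 20.8%, followed by Rpl10a-ps1 and Rpl15-ps3. Across the 100 pseudogenes with at least 1 count in either library, Spearman's rho of TPM between the libraries was 0.51. This is a description over loci that share reads, not independent points.

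Rpl19-ps11, a copy of the large subunit gene Rpl19, stood highest of the pseudogenes by mean TPM. It had 5070 counts and 1480 TPM in technical replicate 2, against 507 counts and 50.3 TPM in technical replicate 1. Its parent had 1168 TPM in technical replicate 2 and 1238 TPM in technical replicate 1. The pseudogene thus stood above its parent in technical replicate 2 and at 0.0407 times its TPM in technical replicate 1. It is annotated at chr8:19492936-19493526 on the plus strand and overlaps an exon of Gm27288 on the same strand, so that reads of these loci cannot be told apart where they overlap.

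Rpl17-ps5, Rpl36a-ps1, Rps25-ps1, Rps2-ps10 and Rps10-ps2 were likewise high in technical replicate 2 and low in technical replicate 1. Rpl17-ps5 (chr5:22612628-22613182, minus strand), a copy of the large subunit gene Rpl17, had 1121 counts and 454 TPM in technical replicate 2, against 15.8 counts and 2.27 TPM in technical replicate 1. Rpl36a-ps1 (chr14:98993870-98994318, minus strand), named after the large subunit gene Rpl36a, had 425 counts and 388 TPM in technical replicate 2, against 21.4 counts and 8.42 TPM in technical replicate 1. Both were thus near the top of the pseudogenes in technical replicate 2 and far down in technical replicate 1, and Rpl17-ps5 has no unique window while 35.0% of those of Rpl36a-ps1 are unique. For Rpl36a-ps1 the sequence used here has 449 bases, against 321 quantified, so its windows and differences may not be those quantified. Rps25-ps1 had 230 counts and 161 TPM in technical replicate 2, against 36.0 counts and 10.0 TPM in technical replicate 1. This copy reached 0.570 times the TPM of Rps25 in technical replicate 2 and 0.00539 times in technical replicate 1. Rps2-ps10, a transcribed copy of the small subunit gene Rps2, had 752 counts and 154 TPM in technical replicate 2, against 199 counts and 13.5 TPM in technical replicate 1. Rps10-ps2 had 89.7 counts and 42.2 TPM in technical replicate 2, against 41.4 counts and 7.08 TPM in technical replicate 1. All 5 had more counts in technical replicate 2 although it was the shallower library, and each differs from its parent at 2 to 8 positions of the alignment.

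Rps6-ps4, Rpl15-ps3, Rpl31-ps8 and Rpl27-ps3 showed the opposite. Rps6-ps4 had 6.56 counts and 1.82 TPM in technical replicate 2, against 5119 counts and 478 TPM in technical replicate 1. Rpl31-ps8 (chr15:90764279-90764656, minus strand), a copy of the large subunit gene Rpl31, had 1.94 counts and 1.36 TPM in technical replicate 2, against 1405 counts and 390 TPM in technical replicate 1. Rpl15-ps3 (chr9:22185607-22186221, minus strand), a copy of the large subunit gene Rpl15, was listed at 0 in technical replicate 2, against 3109 counts and 383 TPM in technical replicate 1. Each of these copies matches its parent without a difference. Rpl27-ps3, a copy of the large subunit gene Rpl27, was also listed at 0 in technical replicate 2, against 707 counts and 130 TPM in technical replicate 1. Rpl14-ps1, named after the large subunit gene Rpl14, had 1.01 counts and 0.30 TPM in technical replicate 2, against 183 counts and 18.4 TPM in technical replicate 1, and it has 4 mismatches and 3 gap positions.

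Among the 12 highest by mean TPM, Rps23-ps1, Rpl10a-ps1, Rpl38-ps2 and Rps13-ps2 were abundant in both libraries. All 4 match their parents without a difference over the alignment. Rps23-ps1, named after the small subunit gene of the decoding centre protein, had 861 counts and 505 TPM in technical replicate 2, against 1765 counts and 393 TPM in technical replicate 1. Rpl10a-ps1 had 552 counts and 181 TPM in technical replicate 2, against 4702 counts and 531 TPM in technical replicate 1. Its parent Rpl10a, which encodes a protein of the large subunit, had 546 TPM in technical replicate 2 and 480 TPM in technical replicate 1. Rpl10a-ps1 therefore stood below its parent in technical replicate 2 and above it in technical replicate 1. Its deposited interval in technical replicate 1, 479 to 539 TPM, includes the parent's 480 TPM. Rpl38-ps2 had 45.0 counts and 96.3 TPM in technical replicate 2, against 339 counts and 447 TPM in technical replicate 1. Rps13-ps2 had 115 counts and 61.6 TPM in technical replicate 2, against 2137 counts and 426 TPM in technical replicate 1. Most copies were far below their parent. Among all pseudogenes with at least 10 counts, the named ones included, the median TPM was 0.767% of the parent's over 36 in technical replicate 2 and 1.29% over 41 in technical replicate 1. Without the named ones it was 0.549% over 26 in technical replicate 2 and 0.785% over 26 in technical replicate 1.

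**Figure D2:**
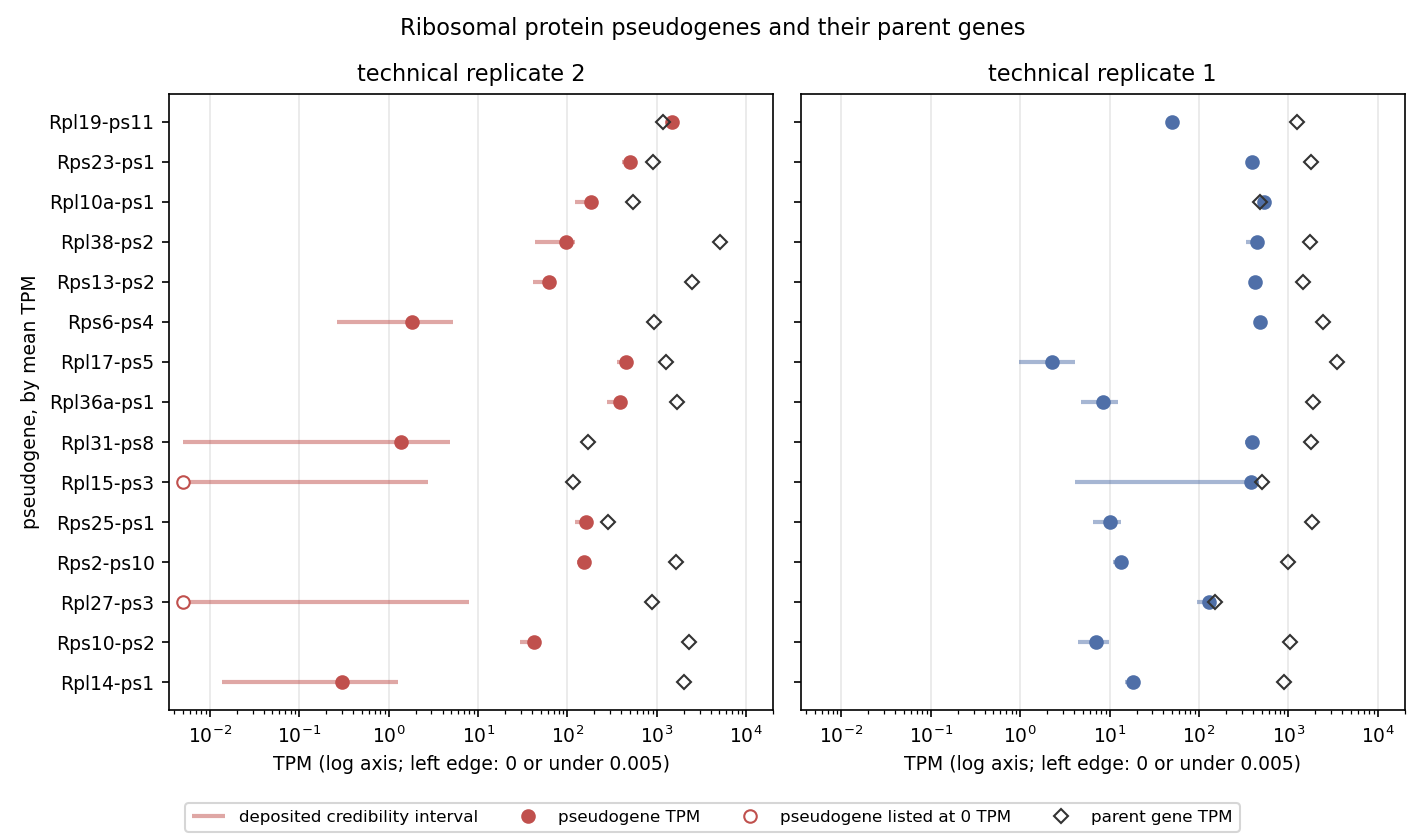
TPM (log axis) of the 15 named pseudogenes (filled circles; open circles are listed at 0) and of their parents (diamonds) in technical replicate 2 (left, red) and technical replicate 1 (right, blue), with the deposited credibility interval of the pseudogene as a line. Rpl19-ps11 lies to the right of its parent in technical replicate 2, at 1480 TPM against 1168 TPM, and Rpl10a-ps1 does so in technical replicate 1, at 531 TPM against 480 TPM. The interval of Rpl10a-ps1 in technical replicate 1, 479 to 539 TPM, includes the parent's value.

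Grouping the pseudogenes by differences from the parent, a split made after the values were seen, set the libraries apart. Differences were counted within the alignment only, so unaligned or missing ends did not count, and Rpl10-ps3, called exact here, aligned over 96.4% of its transcript. The 12 exact copies, those with no mismatch or gap, held 1718 counts in technical replicate 2 and 20313 in technical replicate 1. That is 16.8% of the pseudogene counts in technical replicate 2 and 82.6% in technical replicate 1. The 76 copies with 1 to 10 differences held 8364 counts in technical replicate 2 and 3992 in technical replicate 1, or 81.7% and 16.2%. Without Rpl19-ps11 these near copies held 3294 of the 5170 pseudogene counts left in technical replicate 2 and 3484 of the 24094 left in technical replicate 1. Of the exact copies, 10 have the quantified length, and they held 16.0% of the pseudogene counts in technical replicate 2 and 76.9% in technical replicate 1. The 165 copies with more differences held 152 counts in technical replicate 2 and 297 in technical replicate 1. Exact copies thus took most of the pseudogene counts of technical replicate 1, and near copies most of those of technical replicate 2.

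**Figure D3:**
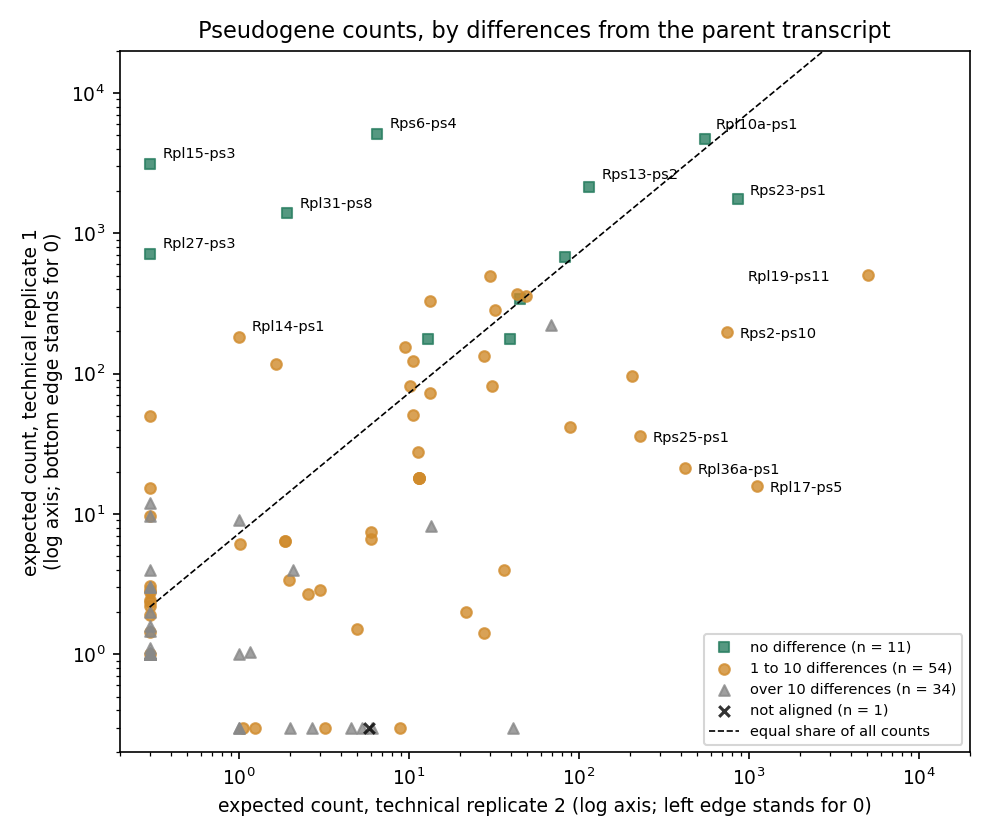
Expected counts (log axes) of the 100 pseudogenes with at least 1 count in either library, technical replicate 2 on the x axis and technical replicate 1 on the y axis, with symbols by the number of mismatches and gap positions against the parent transcript; the dashed line marks an equal share of all gene counts in both libraries. The exact copies Rps6-ps4, Rpl15-ps3, Rpl31-ps8 and Rpl27-ps3 lie far above the line, and Rpl17-ps5, Rpl36a-ps1, Rps25-ps1, Rps2-ps10 and Rpl19-ps11 far below it.

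Ratios were formed where TPM averaged 1 or more and the libraries together held 50 or more counts after rounding to whole counts. This left 34 of the 257, some of which entered through a single library, as Rpl15-ps3, Rpl27-ps3 and Rps13-ps4 did with 0 counts in technical replicate 2, and 66 of the others also held a count in one library or the other. Counts were scaled by TMM, and a gene was called when its whole 95% counting interval lay beyond 1.5-fold. Of the 34, 18 were called higher in technical replicate 2, where 28.0% of all 12467 genes tested were, and 5 were called lower, where 30.4% were. Of the 57 parents, 51 were called higher and 1 lower. The median log2 ratio was 1.08 over the pseudogenes, 2.61 over the parents and -0.27 over all genes tested. Scaling by TMM in place of total counts added 1.26 to each log2 ratio, and under total counts the median over the pseudogenes was -0.18, over the parents 1.35 and over all genes -1.53. Under total counts 10 pseudogenes were called higher, against 14.6% of all genes, and 9 lower, against 57.3% of all genes.

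The highest log2 ratio was that of Rpl17-ps5, at 10.25 (95% interval 9.54 to 11.06). It was followed by Rpl36a-ps1 at 8.46 (7.82 to 9.16), Rpl19-ps11 at 7.44 (7.31 to 7.57) and Rps25-ps1 at 6.79 (6.28 to 7.34). Rps2-ps10 was at 6.03 (5.81 to 6.27) and Rps10-ps2 at 5.25 (4.70 to 5.82). All 3 scalings (TMM, DESeq2 size factors, total counts) called these 6 higher. Their parents' ratios lay lower, at 1.08 for Rpl17, 3.13 for Rpl36a, 2.44 for Rpl19, -0.15 for Rps25, 2.16 for Rps2 and 3.96 for Rps10. Under total counts Rpl17 stood at -0.18 and was not called, and Rps25 stood at -1.41 and was called lower.

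At the low end stood Rpl15-ps3, at -5.90 (interval -8.18 to -4.35) with its 0 counts in technical replicate 2 set to the floor of 3. Rps6-ps4 was at -5.40 (-6.71 to -4.35), Rpl31-ps8 at -5.34 (-8.39 to -3.48) and Rpl14-ps1 at -3.40 (-8.71 to -0.90). Rpl27-ps3, also set to the floor, was at -3.76 (-6.04 to -2.21), while its deposited posterior mean in technical replicate 2 was 5.01 ± 5.36 counts (posterior SD). All 5 kept the call under the 3 scalings, but that of Rpl15-ps3 was lost with the deposited intervals. Of their parents under TMM, Rpl31 was itself called lower at -0.82 and Rpl15 was not called at 0.25. Rps6, Rpl14 and Rpl27 were called higher, at 1.14, 3.70 and 5.16. Under total counts Rpl31 and Rpl15 were both called lower, at -2.08 and -1.01. Rps23-ps1 was higher at 3.08 (2.96 to 3.20), while Rpl10a-ps1, at 1.03 (0.90 to 1.15), and Rpl38-ps2, at 1.20 (0.72 to 1.66), were called higher under TMM and not under total counts, where both ratios were below 0. Rps13-ps2, at -0.10 (-0.38 to 0.17), was not called under TMM and was called lower under total counts.

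**Figure D4:**
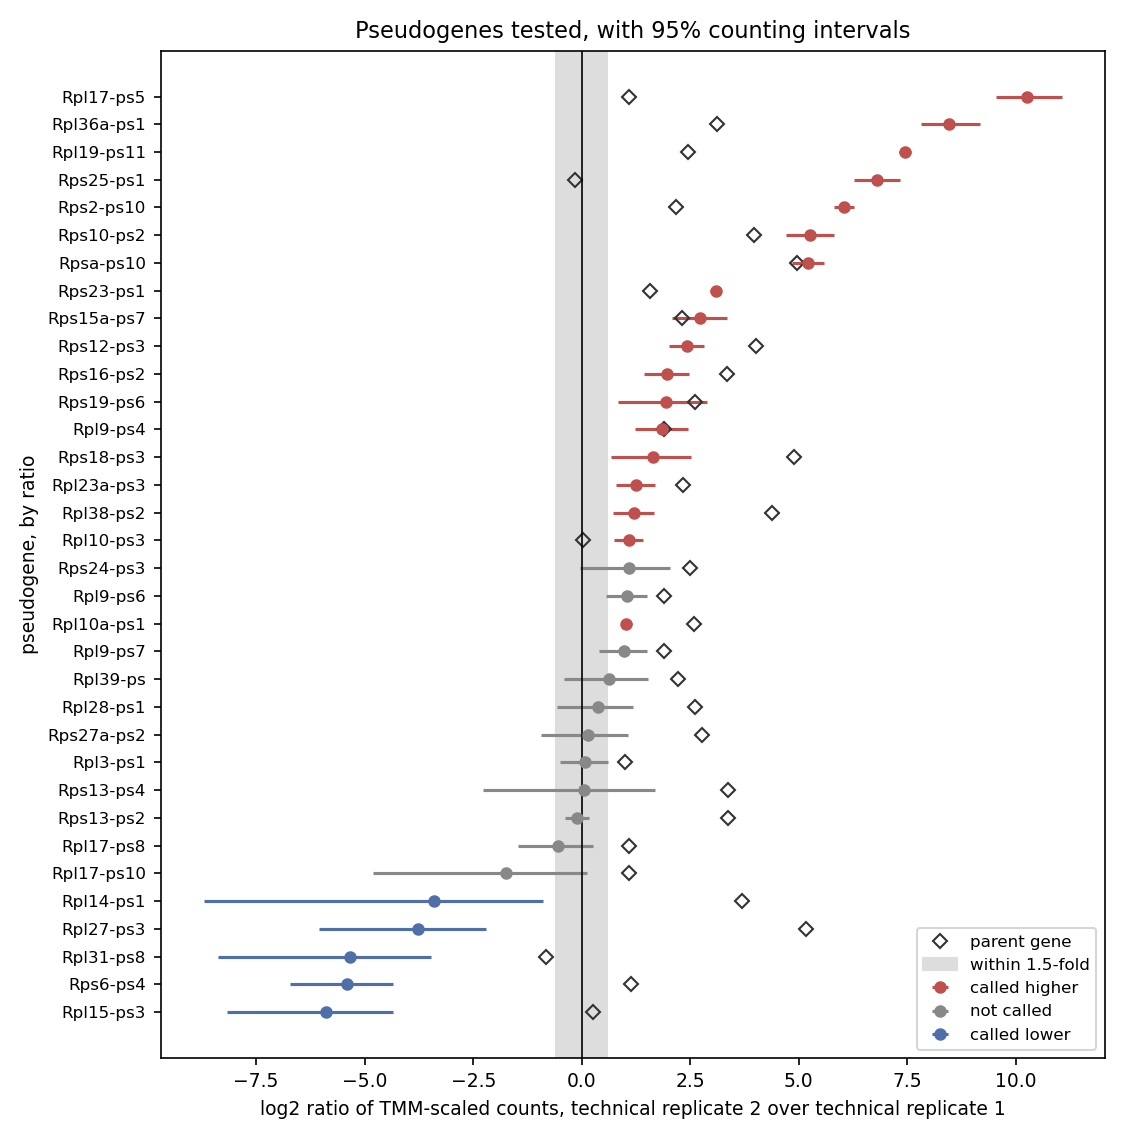
Log2 ratio of TMM-scaled counts, technical replicate 2 over technical replicate 1, of the 34 pseudogenes tested (circles with 95% counting intervals; red called higher, grey not called, blue called lower) and of their parents (diamonds). The pseudogenes run from 10.25 for Rpl17-ps5 to -5.90 for Rpl15-ps3, whose 0 counts in technical replicate 2 were set to the floor of 3.

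The 19 other pseudogenes tested were less abundant, with at most 39.0 TPM in technical replicate 2 and at most 64.2 TPM in technical replicate 1. Of these, 9 were called higher, none lower and 10 were not called under TMM, against 28.0% of all genes higher and 30.4% lower, and their log2 ratios ran from -1.75 to 5.21. Under total counts 3 of the 19 were called higher and 3 lower, against 14.6% and 57.3% of all genes. Those described next were chosen after their values were seen. Rpsa-ps10, a copy of the gene for a small subunit protein that is also known as a laminin receptor, had 205 counts and 39.0 TPM in technical replicate 2, against 96.2 counts and 5.99 TPM in technical replicate 1. Its ratio of 5.21 (4.85 to 5.58) overlapped that of Rpsa, at 4.96.

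Copies of the same parent differed among themselves. Unlike Rpl17-ps5, Rpl17-ps8 had 13.4 counts and 4.69 TPM in technical replicate 2, against 328 counts and 39.8 TPM in technical replicate 1. Rpl17-ps10 had 1.65 counts and 0.67 TPM in technical replicate 2, against 117 counts and 16.8 TPM in technical replicate 1. Rpl17-ps5 was thus the leading Rpl17 copy of technical replicate 2 and Rpl17-ps8 that of technical replicate 1 among these 3. The copies of Rpl9, a large subunit gene, were closer to each other, with log2 ratios of 1.86 for Rpl9-ps4, 1.05 for Rpl9-ps6 and 0.98 for Rpl9-ps7. Of these, Rpl9-ps4 was called higher under TMM and not under total counts, and the other two were called under neither. The 66 pseudogenes that held reads but were too low to enter had 276 counts in technical replicate 2 and 269 in technical replicate 1 in all. Rpsa-ps5 had 41.2 counts in technical replicate 2 and 0 in technical replicate 1.

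The ratios of pseudogenes did not follow those of their parents closely. Across the 34, Spearman's rho between the log2 ratios of pseudogene and parent was 0.15, and between the ratio and GC content or length it was 0.08 and -0.07. These are descriptions over loci of the same libraries. The ratio lay below the parent's in 24 pseudogenes and above it in 10. Counting intervals of pseudogene and parent stood apart in 30 of them, with the pseudogene lower in 22 and higher in 8, and overlapped in 4. Rps6-ps4, Rpl27-ps3 and Rpl14-ps1 were called lower while their parents were called higher, except that under total counts Rps6 was not called and stood at -0.13. The 11 exact copies tested had a median log2 ratio of 0.37, which is below 0 under total counts, with 5 called higher and 4 lower, and the 22 with 1 to 10 differences had a median of 1.45, with 12 higher and 1 lower. Under total counts the exact copies had 1 higher and 5 lower calls, and the near copies 8 higher and 4 lower. Over all genes 28.0% were higher and 30.4% lower under TMM, and 14.6% and 57.3% under total counts.

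Most pseudogene counts were fractional, as a quantifier gives where it divides reads between loci. Only 5 of the 66 pseudogenes holding reads (7.58%) had a whole-number count in technical replicate 2, within 0.005, and 18 of 87 (20.7%) did in technical replicate 1. Over all genes with at least 1 count, 95.7% of counts were whole in technical replicate 2 and 88.7% in technical replicate 1. Fractional counts were not particular to the pseudogenes. Of the 57 parents, 8 had a whole count in technical replicate 2 and 5 in technical replicate 1. Sums over a family were whole more often. Rps25-ps1 and Rps25 together had exactly 1138 counts in technical replicate 2 and 17513 in technical replicate 1. Of 34 families with a fractional parent count in technical replicate 2, 22 had a whole sum of parent and pseudogenes, within 0.015, and 15 of 41 did in technical replicate 1.

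In some sets of copies identical over every window, each locus had the same count. Rpl35a-ps2, -ps3, -ps4 and -ps6 each had 11.59 counts in technical replicate 2 and 18.19 in technical replicate 1, and Gm10243 had the same. Rps19-ps1 and Rps19-ps2, which share every window of 50 bases, each had 1.87 counts in technical replicate 2 and 6.46 in technical replicate 1. Counts were unequal for loci known to share every window only over part of their sequence or in 1 direction. Over the 411 bases compared, Rpl27-ps3 shares every window both with Rpl27 and with Gm11518, a processed pseudogene outside the naming rule. Its quantified transcript is longer, at 475 bases, and the extra bases were not compared. Beside the 0 and 707 counts of Rpl27-ps3, Gm11518 had 197 counts in technical replicate 2 and 3882 in technical replicate 1, and Rpl27 itself had 2500 and 1213. The 3 loci together had 2697 counts in technical replicate 2 and 5802 in technical replicate 1. Rpl10-ps1, whose every window lies in Rpl10-ps3, had 0 counts in both libraries, while Rpl10-ps3 had 83.4 counts in technical replicate 2 and 677 in technical replicate 1. The sharing runs 1 way, since 596 of the 719 windows of Rpl10-ps3 lie in Rpl10-ps1.

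The tables also give the quantifier's own uncertainty. The posterior SD had a median of 13.1% of the posterior mean over the 36 pseudogenes with at least 10 counts in technical replicate 2, and of 6.73% over the 41 in technical replicate 1, while over all such genes the median was 0 in both. The widest case among the abundant ones was Rpl15-ps3 in technical replicate 1, whose expected count was 3109 but whose posterior mean was 1791 ± 1112 counts (posterior SD). Its deposited TPM interval ran from 4.11 to 360, below its listed 383 TPM. A listed TPM above the interval was not particular to this copy. Rpl19-ps11 in technical replicate 2 was listed at 1480 TPM with a narrow interval of 1266 to 1366 TPM. For the Rpl35a-ps2 set, intervals reached from near 0 to between 28.2 and 30.2 TPM in technical replicate 2 and to between 17.9 and 19.0 TPM in technical replicate 1. Intervals spanning over 10-fold were found for 5 of 36 pseudogenes (13.9%) in technical replicate 2 and 5 of 41 (12.2%) in technical replicate 1, against 0.558% and 0.533% of all genes. In each library 4 of the 5 were Rpl35a-ps2, -ps3, -ps4 and -ps6, so 1 set of shared sequence is counted 4 times. The other was Rpsa-ps5 in technical replicate 2 and Rpl15-ps3 in technical replicate 1. All 5 in technical replicate 1, and 4 of the 5 in technical replicate 2, had no unique window. In all, 12 pseudogenes with no unique window had at least 10 counts in technical replicate 2, and 16 did in technical replicate 1. Intervals spanned over 10-fold in 4 of the 12 and 5 of the 16, and the rest had narrower ones.

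Calls were repeated with the deposited intervals in place of counting intervals, a choice made after seeing the data. Then 11 of the 34 were called higher, against 25.5% of all genes, and 5 lower, against 33.0%. The 11 were all among the 18, and 4 of the 5 lower calls were shared. Rpl15-ps3 was no longer called lower by these intervals and Rpl17-ps10 was added. Of the named pseudogenes, Rpl10a-ps1 and Rpl38-ps2 were no longer called higher.

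Pseudogenes also moved their families' totals. Over 57 families, the pseudogenes held a median of 0.192% of the family's counts in technical replicate 2 and 0.405% in technical replicate 1. Their share passed 5% in 7 families in technical replicate 2 and in 8 in technical replicate 1. It was 55.0% in technical replicate 2 and 3.76% in technical replicate 1 for the Rpl19 family, and 19.8% and 42.3% for the Rpl10a family. In the Rpl27 family it was 0% in technical replicate 2 and 36.8% in technical replicate 1, and in the Rpl15 family 0% and 30.0%. Adding the pseudogenes to the parent changed the log2 ratio by over 0.1 in 12 of the 57 families. The Rpl19 family stood at 3.54 (3.50 to 3.58), against 2.44 for Rpl19 alone, and the Rpl27 family at 4.50 (4.41 to 4.58), against 5.16 for Rpl27 alone. The summed counts of all pseudogenes gave a log2 ratio of 2.85 (2.82 to 2.89) under TMM, against 3.23 for the parents and -0.14 for the other processed pseudogenes. Without Rpl19-ps11 it was 1.90. Under total counts it was 1.59, against 1.97 for the parents and -1.40 for the other processed pseudogenes.

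In the 4 largest families few copies held reads. The 22 copies of Rps12, a small subunit gene, held 72.0 counts in technical replicate 2 and 225 in technical replicate 1, against 10387 and 11236 for Rps12, and 2 copies held reads in each library. Nearly all of these counts were those of Rps12-ps3, one of the protein-coding entries, with 69.2 counts in technical replicate 2 and 223 in technical replicate 1. Of the 21 copies of Rpl31, 1 held reads in technical replicate 2 and 6 in technical replicate 1. Together they had 1.94 counts in technical replicate 2 and 1414 in technical replicate 1, or 0.472% and 10.2% of the family, nearly all on Rpl31-ps8. The 14 copies of Rpl23a, which encodes a protein near the peptide exit of the large subunit, had 1 and 3 copies with reads, and the 14 of Rps19, the gene mutated in some cases of Diamond-Blackfan anaemia, had 5 in each library. For 13 of the 58 parent names no copy held a count of at least 1 in either library. Of the 22 copies in introns of other genes, 7 held reads in technical replicate 2 and 11 in technical replicate 1.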

How the data were processed

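Expected counts and TPM per gene were taken as the authors deposited them, 1 table for each technical replicate. The expected count is an estimated count that need not be whole, and per the file headers the tables also hold posterior means, posterior SDs and TPM credibility bounds, whose level is not given in the sources used here. The notes deposited with the tables state that reads were aligned to the transcriptome of mm10 with GENCODE M4. The aligner, the quantifier and their settings are not given in the sources used here. Symbols, annotation and sequences came from GENCODE M21 (GRCm38).

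Counts were scaled by TMM (edgeR 4.0.16, R 4.3.3), with DESeq2 1.42.0 size factors and total counts as alternatives. Where a library had 0 counts, 3 stood in as its floor. A ratio interval is an exact 95% Clopper-Pearson interval, and a call needed the whole interval beyond 1.5-fold. Genes entered where TPM averaged 1 or more and the libraries together held 50 or more counts after rounding to whole counts. No p-value was computed, since 1 library on each side gives no residual spread. Pseudogenes were aligned to coding transcripts of the parent with blastn 2.17.0 (e-value 1e-05), in Python 3.11.15. The calling rule was tested on simulated counts drawn for each gene on its own. Reads shared between loci were not simulated, so their division was not tested. The pseudogenes, gene lists and comparisons were chosen with earlier results of these data known. Pseudogenes named in the text are the 12 with the highest mean TPM, the 6 highest and 6 lowest ratios among those called, and those with at least 10 counts at or above their parent in TPM, and those at 0 counts in one library with at least 50 in the other. Any other pseudogene named was chosen after its values were seen. Near-identical copies make the division of reads uncertain, and both libraries come from 1 animal.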

Additional observations from a re-analysis of the deposited data

How the results depend on the processing

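Of 39 alternative values, 3 reversed, 19 moved, and 17 kept their direction and moved less, a count being taken as moved beyond 1.5 times. Among these 17, the higher calls were 12 at 2-fold and 15 with 99% intervals, where the share over all genes was not computed. The pseudogenes holding reads in technical replicate 2 were 55 at 1 TPM and 46 at 1 CPM, against 21.7% and 28.3% of all genes. The median log2 ratio of the 34 pseudogenes, 1.08 under TMM, reversed to -0.18 under total counts. It reversed to -1.48 when TPM was compared after adding 1 and to -1.54 after adding 0.1, where all genes tested stood at -2.10 and -2.66. With no TPM minimum and at least 10 counts it was 1.97, against 0.13 over all genes. The 18 higher calls became 10 under total counts and 10 when all 3 scalings had to call, each against 14.6% of all genes. With the deposited credibility intervals they became 11, against 25.5% of all genes. The credibility intervals and the rule of all 3 scalings were chosen after seeing the data. With no TPM minimum they became 30 of 51, where the share over all genes was not computed. The 5 lower calls became 9 under total counts, against 57.3% of all genes. The summed log2 ratio of 2.85 became 2.97 with DESeq2 size factors, 1.59 under total counts and 1.90 without Rpl19-ps11. Of the 66 pseudogenes holding reads in technical replicate 2, 36 had at least 10 counts, against 23.6% of all genes. Of the 87 in technical replicate 1, 41 had at least 10 counts, 48 reached 1 TPM and 33 reached 1 CPM. Over all genes these shares in technical replicate 1 were 35.9%, 32.2% and 32.1%. The pseudogenes' share of 2.28% in technical replicate 2 became 2.35% in TPM, 1.16% without Rpl19-ps11 and 1.49% beside all ribosomal protein genes, and the share of 2.94% in technical replicate 1 became 3.91%, 2.88% and 2.06%. The cause was not tested for any of these. At the depth of technical replicate 2, 1 CPM is 3.81 counts, against 27.5 counts in technical replicate 1. The part of depth in the numbers above was not tested. No paired analysis was possible because there is 1 library on each side, and for the same reason no library could be left out.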
